A study of Mus musculus with 4 samples.

Results

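Occupancy by the splice isoforms Mef2Da1 and Mef2Da2 of the transcription factor Mef2D was examined around 5 genes of the AP-1 family: Jun, Junb, Fos, Fosl2 and Jdp2. Each locus was a window of the mouse build mm9 that held the gene and about 50 kb on each side, taken by position alone. All combined regions and all listed peaks that shared at least 1 bp with a window were included. The windows covered 574 kb and held 27 of the 19749 combined regions, 18 of the 8872 Mef2Da1 peaks and 18 of the 10105 Mef2Da2 peaks. A site in a window lies near the gene, and whether it acts on that gene was not measured.

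The samples were ChIP-seq libraries from C2C12, a cultured line of mouse myoblasts that fuse into myotubes, after 5 days in medium with 2% horse serum, insulin and transferrin. The groups Mef2Da1 and Mef2Da2 were precipitations of the endogenous isoform, each with its own peptide antibody. The groups Mef2Da1-BLOCK and Mef2Da2-BLOCK used the same antibodies blocked with peptide. Line, culture and day were shared by the 4 groups, and each group had 1 library. No value below therefore has a replicate error, no difference between libraries was tested, and no expression was measured. Signal is a coverage height, the highest coverage in a peak or region as deposited and not scaled to depth; the number of reads was not given in the sources used here. Over the whole table the median height was 43 for Mef2Da1, 19 for Mef2Da1-BLOCK, 37 for Mef2Da2 and 12 for Mef2Da2-BLOCK.

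AP-1 is a dimer of basic leucine zipper proteins. Jun proteins pair with each other or with Fos proteins, and the dimer binds short palindromic sites in the DNA. The genes Jun, Fos and Junb are immediate early genes, transcribed within minutes of serum or growth factor stimulation. In myoblasts Jun and Fos are known to hold back differentiation, and Jdp2 encodes a protein that pairs with Jun and represses AP-1 sites. MEF2 proteins bind AT-rich sites, act with the myogenic factors in muscle, and are known activators of the Jun promoter. The Mef2Da1 isoform is found in many tissues, whereas Mef2Da2, made by a switch of exons, is the muscle form.

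The promoters of the 3 immediate early genes are shown first, since the highest peak of any locus lay at Jun. Each of the 3 had listed peaks of both isoforms in or overlapping the interval of the gene, as had Jdp2. The sequences are the 250 bases before the RefSeq start of each gene in the build GRCm38.p6, read 5′ to 3′ on the strand of the gene. Capitals mark the MEF2 consensus, the AP-1-like site TGACATCA, the TATA box TATAAA and TGACG, the core of the cyclic AMP response element.
Jun, chr4:95052223-95052472 (minus strand): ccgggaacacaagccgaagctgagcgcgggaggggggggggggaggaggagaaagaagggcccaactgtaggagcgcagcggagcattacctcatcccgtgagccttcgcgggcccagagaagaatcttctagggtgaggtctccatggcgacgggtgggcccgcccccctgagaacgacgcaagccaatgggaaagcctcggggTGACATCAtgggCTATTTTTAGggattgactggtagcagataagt
Fos, chr12:85473640-85473889 (plus strand): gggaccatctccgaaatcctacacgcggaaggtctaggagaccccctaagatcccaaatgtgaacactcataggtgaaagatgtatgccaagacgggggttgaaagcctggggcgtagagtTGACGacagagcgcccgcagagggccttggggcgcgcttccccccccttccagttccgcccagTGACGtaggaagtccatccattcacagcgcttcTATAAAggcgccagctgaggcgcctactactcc
Junb, chr8:84978749-84978998 (minus strand): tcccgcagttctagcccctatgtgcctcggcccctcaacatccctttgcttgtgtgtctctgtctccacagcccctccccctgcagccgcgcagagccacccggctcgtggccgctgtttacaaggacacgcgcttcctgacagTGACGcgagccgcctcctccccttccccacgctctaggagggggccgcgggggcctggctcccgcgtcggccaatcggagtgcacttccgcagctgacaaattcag
The Jun promoter held a MEF2 consensus, CTATTTTTAG, 33 to 24 bases before the start, and a TGACATCA 45 to 38 bases before it. The MEF2 consensus was present in 1 of the 7 promoter entries of the 5 genes (Jdp2 has 3) and in 2.92% of all 32851 entries of the same length. The TGACATCA was likewise in 1 of 7, against 2.93% of all. The Fos promoter had a TATA box 33 to 28 bases before the start, a motif of 12.4% of all entries. TGACG occurred in 3 of the 7 entries (Fos, Junb and 1 of Jdp2), against 17.8%. The full AP-1 site TGANTCA (6.75% of all entries), the element TGACGTCA (1.55%) and the serum response element (1.47%) had no match in these 7 entries. Only the 250 bases before each start were searched, so a site farther upstream would be missed. The E-box CANNTG was found in 3 of 7 and in 66.2% of all. Both strands were searched. Matches describe the letters only. The files use mm9 and these sequences another build, so the distance of a peak from a motif was not determined.

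The loci differed in how much signal they held and in whether the isoforms shared it. Fos had 6 peaks of each isoform, all of them overlapping, and Junb also had 6 of each, with 1 overlapping pair. Jdp2 had 4 of each with 2 overlapping pairs, Jun had 2 Mef2Da1 peaks and 1 Mef2Da2 peak with no overlap, and Fosl2 had 1 Mef2Da2 peak alone. Over all windows 9 of 18 Mef2Da1 peaks overlapped a Mef2Da2 peak, against 61.6% of the whole Mef2Da1 list. In the other direction 9 of 18 Mef2Da2 peaks did so, against 54.6%. Both counts were thus close to or a little below those of the lists, while Fos stood at 6 of 6. Among combined regions, peaks of both isoforms were present in 9 of 27, somewhat above the 26.6% of the table, namely in 6 of 7 at Fos, 2 of 8 at Jdp2 and 1 of 8 at Junb. A further 4 regions had a Mef2Da1 peak only (15.2% over the table), 2 had one of Mef2Da2 only (20.1%), and 12 were without any (38.1%).

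**Figure D1:**
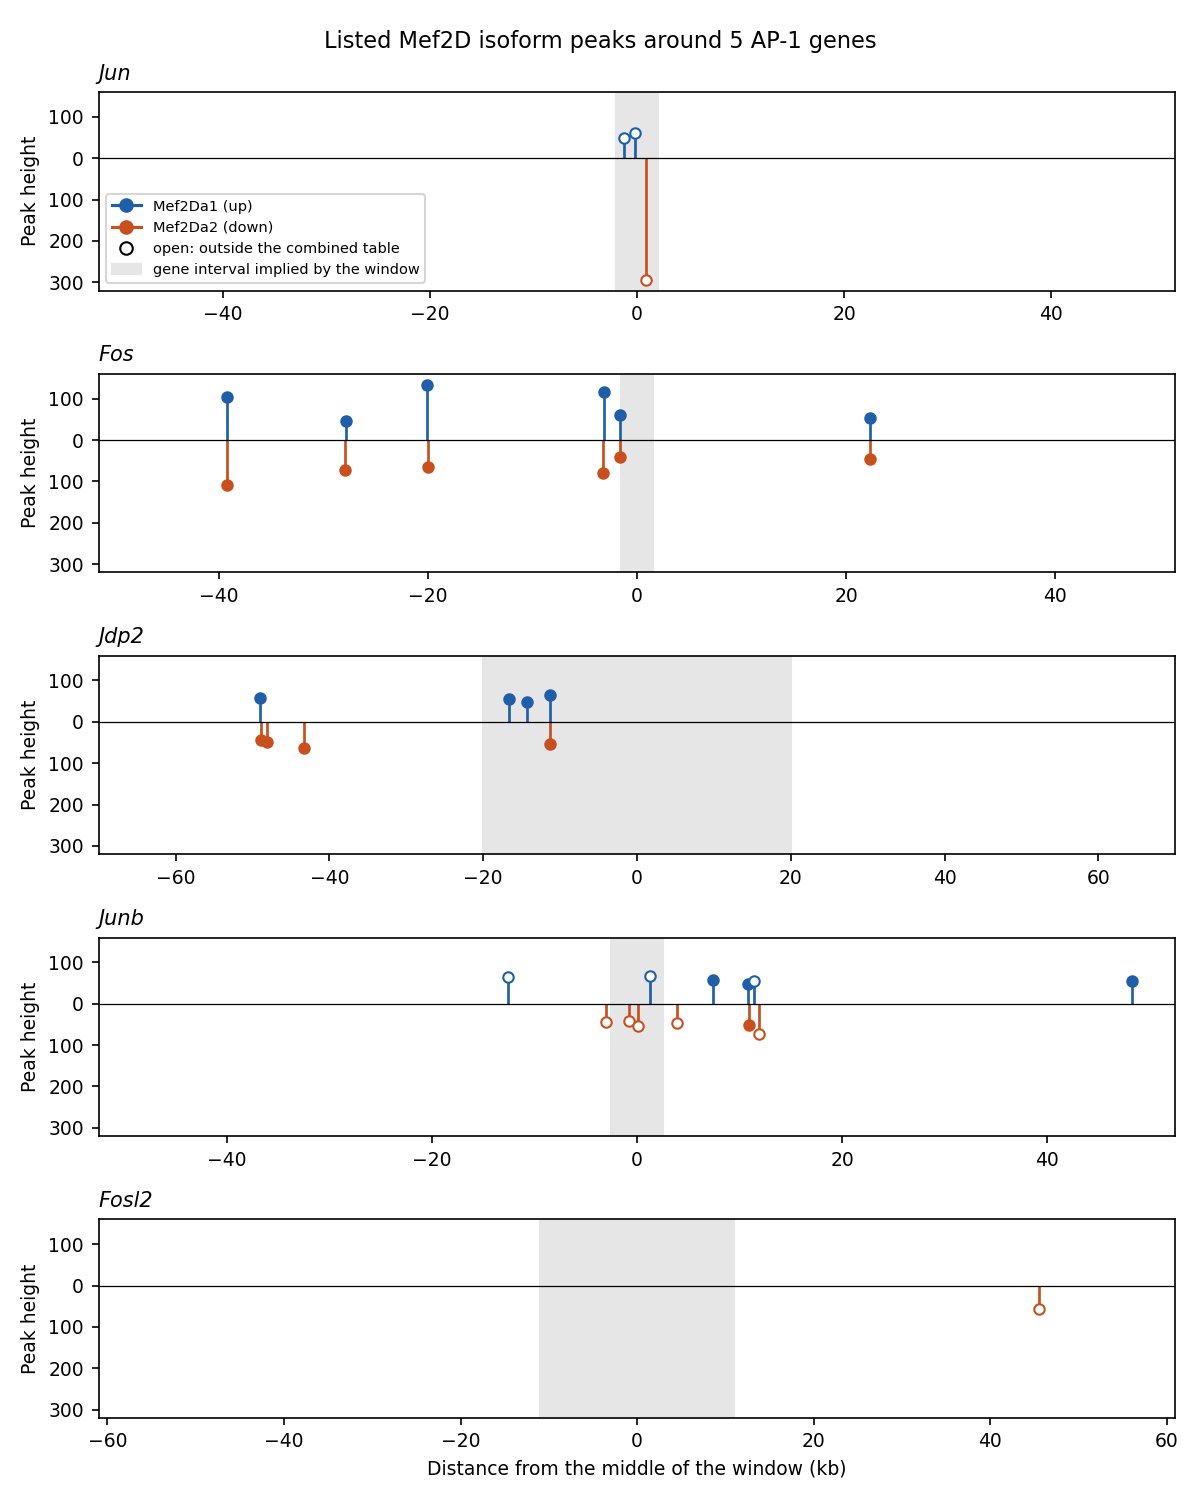
Listed peaks in the 5 windows, plotted by distance in kb from the middle of the window (increasing with the mm9 coordinate), with the Mef2Da1 height drawn upward and the Mef2Da2 height downward; grey marks the gene interval left after taking 50 kb off each side of the window. Open circles are peaks outside the combined table: the Mef2Da2 peak of 295 at Jun is one of them, and the 6 pairs at Fos sit opposite each other.

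The windows were compared with tiles of the same width over the chromosomes, as a description. The tiles were laid without regard to genes, whereas each window was centred on a gene, so the shares do not compare gene loci with each other. A tile of the width of the Fos window (103 kb) held on average 0.830 combined regions, and 1.61% of the 23913 tiles held at least the 7 found at Fos. For Junb (105 kb) 1.05% of tiles held at least its 8 regions, and for Jdp2 (140 kb) 2.04% held at least its 8. Fosl2 with 3 regions and Jun with 1 were less dense: 13.7% and 35.3% of tiles of their widths held at least as many. Between 59.3% and 64.9% of tiles of the 5 widths held no region, so a single region already exceeds the typical tile. By listed peaks, which at Jun all lay outside the combined table, 8.73% of tiles held at least its 2 Mef2Da1 peaks and 24.0% at least its 1 Mef2Da2 peak. RefSeq lists Fos and Jdp2 as next neighbours on chromosome 12, with Batf, another AP-1 family gene, following Jdp2, so the dense Fos and Jdp2 windows are parts of 1 stretch and not separate observations.

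Jun encodes the main DNA-binding partner in AP-1. The Mef2Da2 peak at chromosome 4, 94718663 to 94719141, had a height of 295 and an authors' −log10 p of 54.4. It was rank 47 of 10105 Mef2Da2 peaks by height, within the top 0.465% of the list. It lay inside the 4 kb gene interval implied by the window (94716000 to 94720000), 0.902 kb from its middle on the side of higher coordinates. RefSeq places Jun on the minus strand, so that side is the one of the start of transcription. Next to it lay a broad Mef2Da1 peak of 1463 bp at 94717068 to 94718530, with a height of 60 and a −log10 p of 8.19, separated from the Mef2Da2 peak by 132 bp. A second Mef2Da1 peak, at 94716621 to 94716936, had a height of 49 and a −log10 p of 6.26. By the positions in the lists, the called peaks of the isoforms were thus side by side over the gene and did not overlap. The library fragments were 200 to 350 bp, longer than the gap of 132 bp. Whether the isoforms occupied different bases was not tested.

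None of the 3 Jun peaks lay in a combined region. Over the lists, 5.12% of Mef2Da1 peaks and 6.8% of Mef2Da2 peaks were outside the combined table. Among the 687 such Mef2Da2 peaks, with a median height of 46, the Jun peak ranked 4 by height. The height of Mef2Da1 and of the blocked controls at this peak could therefore not be read, and the 295 has no blocked value beside it. The nearest combined region, at 94719351 to 94720371, began 209 bp beyond the peak. There the heights were 38 for Mef2Da1 against 23 with the blocked antibody, and 33 for Mef2Da2 against 19. No peak was listed in it, and neither isoform was 2-fold above its blocked control.

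Junb encodes a Jun protein that is a weaker activator than Jun. Its window held 12 peaks, none of them high: 48 to 67 for Mef2Da1 and 42 to 73 for Mef2Da2. In the implied gene interval (chromosome 8, 87500000 to 87505000) Mef2Da2 had peaks at 87501173 to 87502187 with a height of 42 and at 87502275 to 87502974 with a height of 55. Mef2Da1 had 1 peak there, at 87503429 to 87504159, with a height of 67, the highest of this isoform in the window. The Mef2Da1 peak and the nearer Mef2Da2 peak were 454 bp apart, and no peak of one isoform in the interval overlapped a peak of the other, as at Jun.

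Outside the combined table were 3 of the 6 Mef2Da1 peaks and 5 of the 6 Mef2Da2 peaks at Junb, including all 3 peaks in the gene interval. Together with Jun and Fosl2 this made 5 of 18 Mef2Da1 peaks and 7 of 18 Mef2Da2 peaks, against 5.12% and 6.8% over the lists. At Fos and Jdp2 it was none of 10 for either isoform. The highest Mef2Da2 peak of the Junb window, at 87514227 to 87514518 with a height of 73, also had no value for the other libraries. The single overlapping pair lay in the combined region at 87513019 to 87513688. There the heights were 48 for Mef2Da1 against 30 with the blocked antibody, and 51 for Mef2Da2 against 13, so that Mef2Da2 but not Mef2Da1 was 2-fold above its control.

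In the other 7 combined regions at Junb, Mef2Da2 was low, 15 to 32, and Mef2Da1 stood at 34 to 57. At 87509384 to 87510448 Mef2Da1 reached 57 against 30 in its blocked control, while Mef2Da2 had 27 against 31. At 87550328 to 87551106, near the edge of the window, the heights were 55 against 23 and 23 against 24. In these 2 regions Mef2Da1 was thus above its blocked control in unscaled heights and Mef2Da2 was not. Both conditions together held in 2.54% of regions over the table. The Mef2Da2-BLOCK heights of 31 and 24 in these 2 regions were themselves within the top 0.137% and 2.12% of the table. At 87519446 to 87519878 the heights were 38 and 15 for the isoforms against 26 and 13. The region nearest the gene, at 87497774 to 87498544, had 34 against 29 for Mef2Da1 and 27 against 14 for Mef2Da2.

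Fos encodes the partner that stabilises the dimer with Jun, and its window held the highest combined regions of the 5 loci. In 6 of 7 regions both isoforms had a peak, and the paired midpoints were 4 to 87 bp apart. The region at chromosome 12, 86795869 to 86797077, had a Mef2Da1 height of 133 against 27 with the blocked antibody and a Mef2Da2 height of 66 against 18. At 86812789 to 86813688 Mef2Da1 had 115 against 13, and Mef2Da2 had 80 against 27. At 86777004 to 86777583 it was 104 against 18 for Mef2Da1 and 110 against 14 for Mef2Da2. In unscaled heights each isoform was over 2-fold above its control at these 3 sites, although the Mef2Da2-BLOCK height of 27 at 86812789 was itself within the top 0.689% of the table. The 3 regions were within the top 1.63%, 2.65% and 3.63% of the table by Mef2Da1 height, and within the top 17.3%, 11.9% and 5.96% by Mef2Da2 height. The order of the sites thus differed between isoforms: Mef2Da1 was highest 17.9 kb from the gene interval and Mef2Da2 highest 37.4 kb from it.

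Of the regions with lower signal, the one at 86788046 to 86789108 was 1 of 2 regions of the Fos window in which Mef2Da2 was the higher isoform in deposited heights, with 73 against 10 in the blocked control and 46 against 18 for Mef2Da1. The region at 86814404 to 86815827, which overlapped the start of the implied gene interval (86815000 to 86818000), had 60 against 21 for Mef2Da1 and 40 against 26 for Mef2Da2. RefSeq places Fos on the plus strand, so this is the side of its start of transcription. On the other side of the gene, at 86838309 to 86839310, the heights were 54 against 26 and 47 against 13. The seventh region, at 86771366 to 86771887, had 37 and 30 for the isoforms against 17 and 13, with no listed peak. Thus 5 of the 6 regions with a peak lay before or at the start of the gene and 1 lay beyond it.

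Fosl2 encodes a Fos protein without the strong activating domain of Fos. It had the least listed signal: no Mef2Da1 peak, and 1 Mef2Da2 peak of height 58 at chromosome 5, 32494448 to 32494735, which was outside the combined table and 34.4 kb from the gene interval. The region at the start of the implied gene interval, 32437645 to 32438581, had 62 for Mef2Da1 against 41 with the blocked antibody, and 39 for Mef2Da2 against 12. The region at 32499986 to 32500563 had 53 against 38 and 32 against 17. In both, Mef2Da1 had a −log10 p above 6 in the combined table (8.55 and 6.96) but no listed peak. This held for 3 of 16 regions at that level in the 5 windows, against 6.01% of the 8003 over the table. The remaining one was at Junb, 87521690 to 87522323, with a −log10 p of 6.61. Over the table the regions at that level without a listed Mef2Da1 peak had a median Mef2Da1-BLOCK height of 24, against 20 in those with one. Their median Mef2Da1 height was lower, 48 against 60. For Mef2Da2 the regions at that level without a listed peak had a median of 9 in Mef2Da2-BLOCK, against 11, and 38 in Mef2Da2, against 58. Whether the blocked signal kept these sites off the list was not tested. The third region, at 32400557 to 32401411, had 45 against 14 and 31 against 11.

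Jdp2 encodes the repressor of the group, and its sites were modest, with 28 to 64 for Mef2Da1 and 31 to 63 for Mef2Da2. They lay in 2 groups that differed in the isoform with more signal. Inside the implied gene interval (chromosome 12, 86940000 to 86980000) were 3 regions, all with a Mef2Da1 peak. The highest, at 86948466 to 86948854, had 64 against 20 for Mef2Da1 and 53 against 5 for Mef2Da2, and peaks of both. At 86942620 to 86944136 Mef2Da1 had 56 against 35 and Mef2Da2 had 31 against 20. At 86945560 to 86945920 it was 48 against 17 and 33 against 10. Mef2Da1 was thus the higher one in deposited heights in each of these 3 regions.

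The other group lay before the gene, 23.2 to 28.4 kb from the interval, and held 4 regions. In 3 of them Mef2Da2 was the higher one. At 86916459 to 86916800 Mef2Da2 had 63 against 8 and Mef2Da1 38 against 13, with a Mef2Da2 peak only. At 86911686 to 86912187 it was 48 against 12 and 31 against 16, again with a Mef2Da2 peak only. At 86912242 to 86912841, with no peak, Mef2Da2 had 36 against 18 and Mef2Da1 28 against 19. The fourth region of the group went the other way. This one, at 86910282 to 86911561, had peaks of both isoforms, with 57 against 26 for Mef2Da1 and 44 against 20 for Mef2Da2. Scaled to equal totals, its log2 ratio of Mef2Da1 to Mef2Da2 was 0.34, above the 0.24 at 86948466 inside the interval. A region between the groups, at 86935352 to 86935823, had 33 against 21 and 35 against 8.

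**Figure D2:**
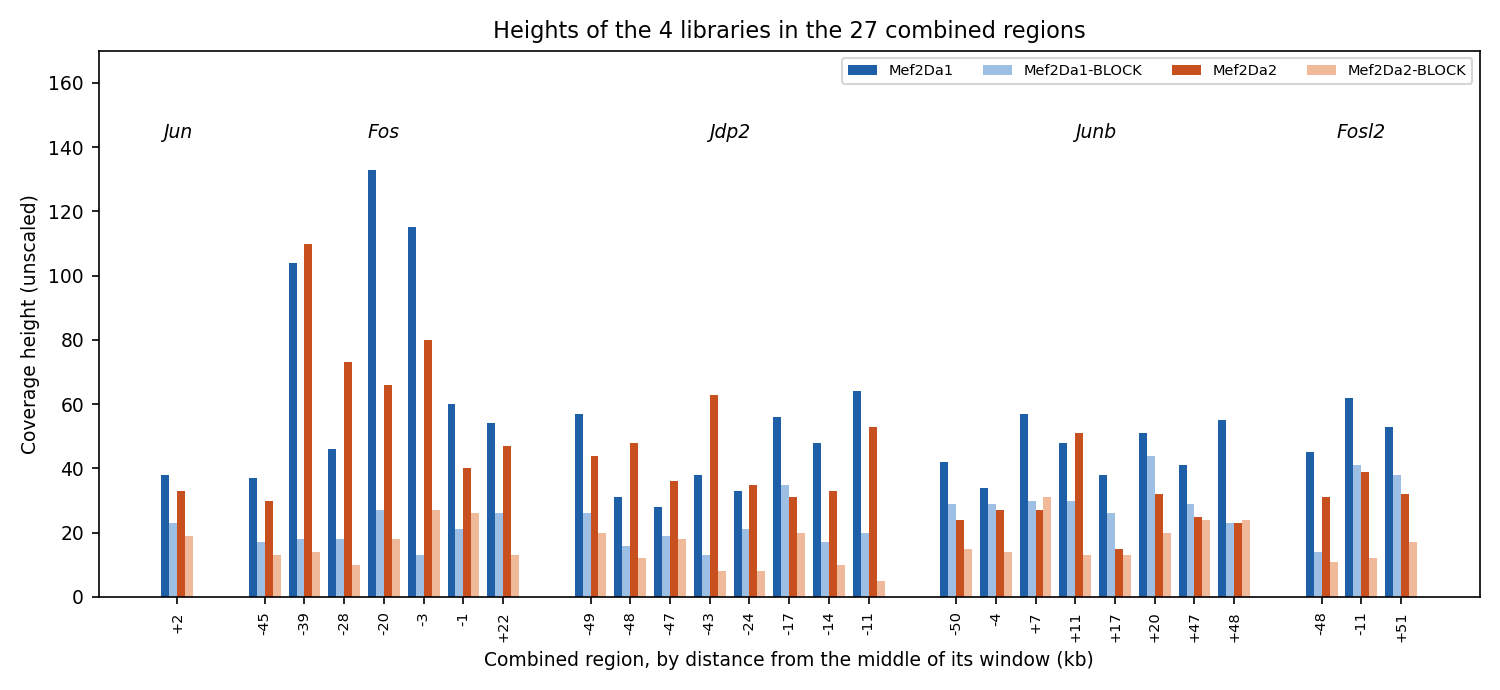
Coverage height (unscaled, linear axis from 0) of the 4 libraries in each of the 27 combined regions, labelled by distance in kb from the middle of the window; each bar is 1 library and has no error. The tallest bars are 133 for Mef2Da1 and 110 for Mef2Da2, both at Fos, and the blocked controls reach 44 and 31, both at Junb.

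Set against the blocked controls, Mef2Da1 was at least 2-fold higher in 13 of 27 regions (heights plus 1, unscaled), against 64.7% of all regions. Mef2Da2 was so in 15 of 27, against 75%. The loci differed in this: for Mef2Da1 it was 7 of 7 at Fos, 4 of 8 at Jdp2, 1 of 8 at Junb, 1 of 3 at Fosl2 and 0 of 1 at Jun. For Mef2Da2 it was 6 of 7, 6 of 8, 1 of 8, 2 of 3 and 0 of 1 in the same order. The median log2 ratio to the blocked control was 1.47 and 1.78 at Fos for Mef2Da1 and Mef2Da2, but 0.52 and 0.42 at Junb. Over all 27 regions it was 0.91 and 1.15, against 1.19 and 1.63 for the regions of the whole table. With libraries scaled to equal totals over the table the 27 regions had medians of −0.46 and −0.80. That scaling sets the ratio of table totals to 1 (973579 to 377117 for Mef2Da1, 955997 to 247315 for Mef2Da2). These 2 medians thus place the regions below the table's own ratio and cannot show whether an isoform exceeded its control. The direction above the control was read from unscaled heights of unknown depth.

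The blocked heights, which are the denominators of these ratios, also differed between loci. At Fosl2 the median log2 ratio was 0.58 for Mef2Da1 and 1.42 for Mef2Da2. The median Mef2Da1-BLOCK height was 29 at Junb and 38 at Fosl2, against 18 at Fos, 19.5 at Jdp2 and 19 over the table. At Junb 6 of 8 regions had a Mef2Da1-BLOCK height of 28 or more, the 90th percentile of the table, as had 2 of 3 at Fosl2, 1 of 8 at Jdp2 and none of the 7 at Fos, against 12% of all regions. The Junb region at 87521690 to 87522323 had a Mef2Da1-BLOCK height of 44 with a score of 6.25, next to 51 for Mef2Da1; a score of 6 or more was given to 0.172% of regions. For Mef2Da2-BLOCK, a height of 20 or more was reached in 4 of 8 regions at Junb, 2 of 7 at Fos, 2 of 8 at Jdp2 and none at Fosl2 or Jun, against 10.4%. The 2 such regions at Fos, with Mef2Da2-BLOCK heights of 27 and 26, had log2 ratios of 1.53 and 0.60 for Mef2Da2. Both were below the Fos median of 1.78, but they were picked by the denominator of the ratio, so this is no separate result. The part of the blocked signal in the ratios at these loci was not tested.

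**Figure D3:**
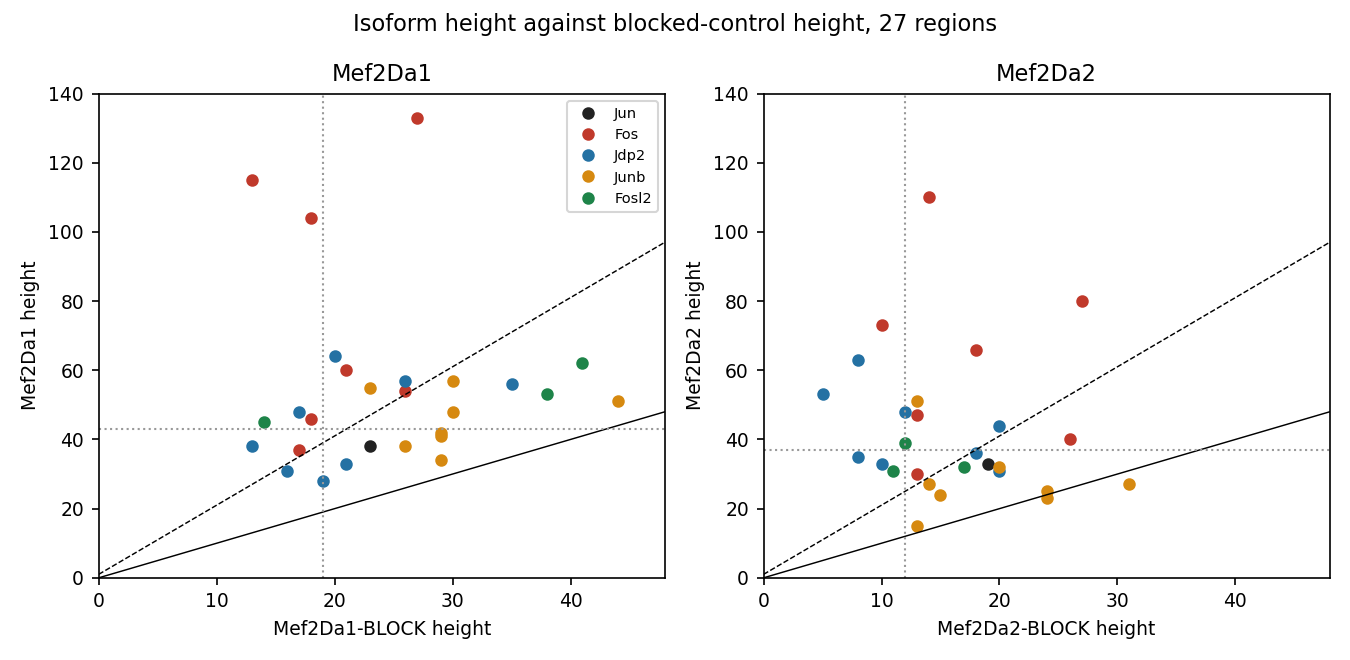
Height of each isoform (vertical) against the height of its blocked control (horizontal) in the 27 regions, coloured by locus; the solid line is equality, the dashed line 2-fold after adding 1, and dotted lines are the medians of the whole table. The highest points of each panel are of Fos. Points of Junb lie to the right of the dotted median of the blocked control, with 1 of 8 at or above the dashed line in each panel. Points of Fosl2 at Mef2Da1-BLOCK 38 and 41, and of Fos at Mef2Da2-BLOCK 26 and 27, also lie far to the right.

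Between the isoforms, most regions differed little. Scaled to equal totals, Mef2Da1 was over 2-fold above Mef2Da2 in 3 of 27 regions, all at Junb, against 9.62% of all regions. Mef2Da2 was over 2-fold above Mef2Da1 in 0 of 27, against 7.03%. The largest log2 ratio toward Mef2Da1 was 1.26, at Junb, 87519446 to 87519878, where Mef2Da2 had 15 and its blocked control 13. The largest toward Mef2Da2 was −0.74, at Jdp2, 86916459 to 86916800. At Fos the ratios ran from −0.68 at 86788046 to 0.97 at 86795869. The median over the 27 regions was 0.49, against 0.17 over the table.

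The scaling decided many of these signs. With libraries scaled to the totals of the blocked controls, the 3 regions at Junb were no longer over 2-fold (0.44 to 0.68), so that none of 27 was, against 1.6% of all. In turn 3 of 27 passed 2-fold toward Mef2Da2, against 20.7%: 86788046 at Fos (−1.26), and 86916459 (−1.32) and 86911686 (−1.22) at Jdp2. Under that scaling 10 of 27 regions changed the side of the higher isoform, and Mef2Da1 was higher in 10 of 27 in place of 20. The region at 86795869 at Fos kept Mef2Da1 as the higher isoform under each of the 4 scalings, with log2 ratios of 0.39 to 1.00. The region at 86942620 in the Jdp2 interval kept it too (0.22 to 0.83), whereas those at 86945560 and 86948466 turned to −0.08 and −0.34 with blocked totals. The 3 regions before Jdp2 with more Mef2Da2 kept that side under each of the 4.

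**Figure D4:**
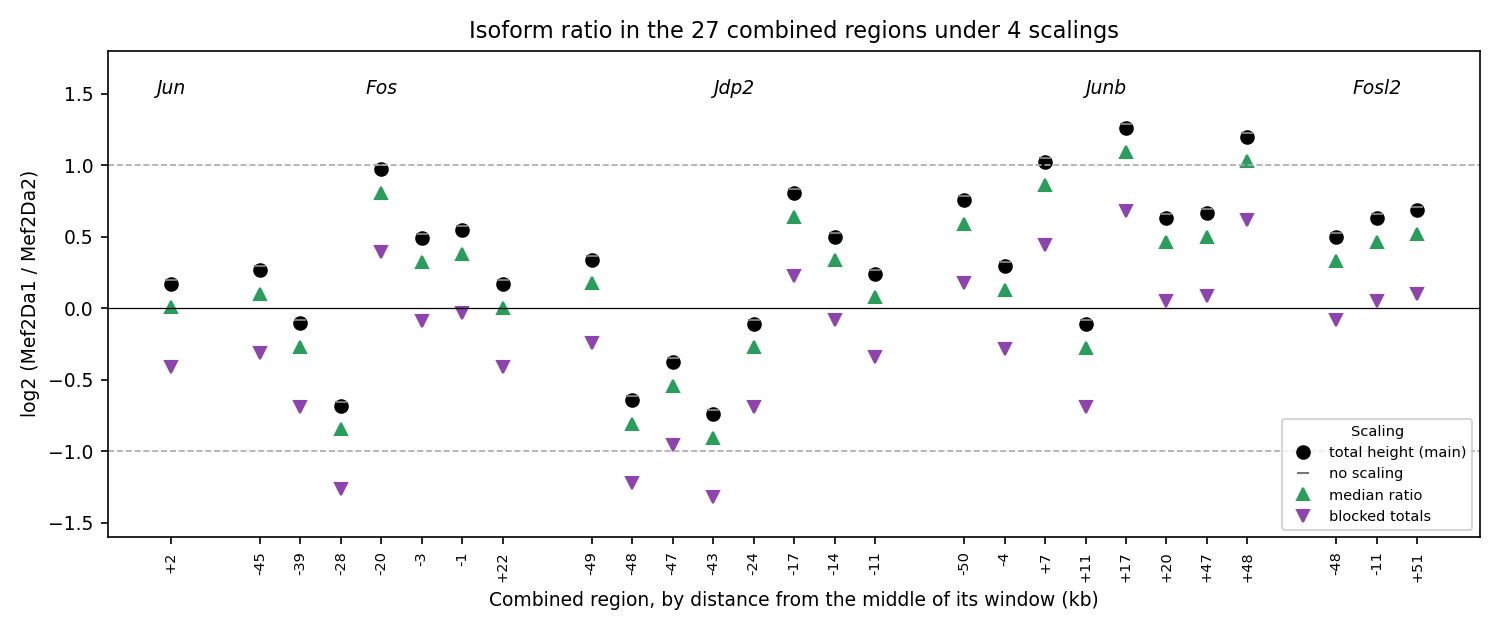
Log2 ratio of Mef2Da1 to Mef2Da2 in the 27 regions, in the order of the bar plot of heights, under 4 scalings; dashed lines mark 2-fold. Blocked totals shift every point toward Mef2Da2, so that 10 of 27 points cross 0.

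In the 9 overlapping pairs the midpoints were 4 to 134.5 bp apart with a median of 62 bp, farther apart than the 30 bp over all 5527 pairs of the lists. Mef2Da1 had the wider peak in 5 of these 9 and in 73.4% of all pairs. Peaks in the windows were broad: the median width was 598 bp for Mef2Da1 and 462.5 bp for Mef2Da2, against 430 and 346 bp over the lists. The widest were the Mef2Da1 peak at Jun (1463 bp) and the Mef2Da2 peak at 86795948 to 86797017 of Fos (1070 bp). Across the 27 regions, Mef2Da1 and Mef2Da2 heights had a Spearman rho of 0.38, against 0.31 over the table, and log2 heights a Pearson r of 0.56, against 0.46. This describes regions that share the same 2 libraries, and the regions of a window are not independent.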

How the data were processed

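The authors deposited 1 peak list for each isoform and 1 combined table of regions for the 4 libraries. BWA 0.5.9 and the build mm9 are named per the submitters' processing notes; the peak caller, the way the regions were combined and the depth are not given there or elsewhere in the sources used here. Per the file headers and values, the deposited signal is a coverage height in whole numbers, unscaled. The lists and the table also give the authors' −log10 p, none below 6 in the lists; for the blocked libraries this deposited column was treated as a score, since some values are below 0. Table columns carry the same 2 names as the peak lists of the samples and were assigned to samples by them.

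Windows were taken from the stated mm9 coordinates, and the gene interval is the window less 50 kb on each side. A peak or region belonged to a window, and a peak to a region, by 1 shared bp. Ratios used a pseudocount of 1. Ratios to blocked controls were unscaled, and ratios between isoforms were divided by the ratio of total heights over the table. Alternatives were median scaling, totals of the blocked controls, a pseudocount of 5, midpoints, windows narrowed by 25 kb a side and a −log10 p of 10. Coordinates of peaks count from 1, and regions keep the coordinates of the table. No mm9 genome or annotation was used here, so sites were not placed in exons or introns, other AP-1 genes (such as Jund, Fosb, Fosl1 and Batf) were not analysed here, and gene order, strands and promoters come from RefSeq (GRCm38.p6). All 5 genes matched the promoter table, with 7 entries.

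The members and lists were chosen with earlier results of these data known. The motifs TGACATCA, TATAAA and TGACG, the 90th percentile and the count of peaks outside the table were chosen after the data were seen. Regions were named where they held peaks of both isoforms, were highest in a window, nearest to the gene or had the largest isoform ratio; others named here were chosen after their values were seen. With 1 library per group, no test was run. Overlap code was tested on simulated intervals. Python 3.11.15, NumPy 2.4.6, pandas 2.3.3 and Matplotlib 3.10.9 were used.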

Additional observations from a re-analysis of the deposited data

Results flagged for a closer look

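In 2 combined regions of the Junb window the isoforms lay on opposite sides of their own blocked controls in the unscaled heights. At chromosome 8, 87509384 to 87510448, the log2 ratio to the blocked control was 0.90 for Mef2Da1 and −0.19 for Mef2Da2. At 87550328 to 87551106 it was 1.22 for Mef2Da1 and −0.059 for Mef2Da2. The Mef2Da2-BLOCK heights there, 31 and 24, were within the top 0.137% and 2.12% of the table. In the region at 87550328 Mef2Da2 had 23 against that 24, nearly equal. Each side has 1 library, and the difference was not tested.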

How the results depend on the processing

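No paired analysis was possible because each group has 1 library, and for the same reason no replicate could be left out. Unknown depth limits every comparison of heights. Of 46 alternative values of counts and medians over the 5 windows, 19 counts stayed within 1.5 times the main count and 12 counts did not; 5 medians changed sign, and the other 10 medians kept it, with any change of value counted as a move. Narrowing the windows by 25 kb a side left 16 of 27 regions, by construction, with 7 (Mef2Da1) and 9 (Mef2Da2) regions 2-fold or more over their controls, medians of 0.80 and 1.58 for these ratios, and a median log2 ratio between isoforms of 0.50. A −log10 p of 10 or more left 3 Mef2Da1 peaks, 7 Mef2Da2 peaks and 3 regions with peaks of both, by construction. With total scaling, 2 regions for Mef2Da1 and 1 for Mef2Da2 stayed 2-fold or more over their controls, with medians of −0.46 and −0.80. With median scaling it was 3 and 4, with medians of −0.28 and −0.49. Both scalings set the table-wide ratio of isoform to control to 1, by totals or by median. The signs of these medians therefore compare the regions with the table only. Where only regions holding a peak of the isoform itself were kept, the medians were 1.31 and 1.89. That filter selects on the isoform's own signal, so higher medians follow by construction and are no check of the ratio. With a pseudocount of 5 the medians over the 27 regions were 0.82 and 0.97. Between the isoforms, the median log2 ratio was 0.52 without scaling, 0.33 with median scaling, 0.45 with a pseudocount of 5 and −0.091 with blocked totals, where 0 regions were over 2-fold toward Mef2Da1 and 3 toward Mef2Da2. No value here tells which scaling is right. The midpoint rule left the counts of regions and of listed peaks as they were, and requiring at least 50% of a peak inside the region left 9 regions with peaks of both; other counts were not run under these rules.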
